A study of Mus musculus with 64 samples.

Results

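Skeletal muscle of young wild-type mice was compared with omental adipose tissue and liver of the same genotype and age. The comparison used 18 of the 64 RNA sequencing libraries of the series: 6 from muscle, 6 from omental adipose tissue (the fat of the omentum in the abdomen) and 6 from liver. Each of these was labelled wild type (WT), strain C57/B6, 5 months old, and each mouse had been given 5 injections of tamoxifen (75 mg/kg) after weaning, as all other mice of the series had. The further groups used below were WT mice of 20 months and MycKO mice of 5 and 20 months, here called KO, in which tamoxifen switches on a Cre recombinase expressed from Gt(ROSA)26Sor, a site active in most tissues, and Cre then cuts out floxed Myc. The KO mice came from crosses of lines with B6.129 strain names, so strain background and genotype cannot be told apart in comparisons of KO with WT. The labels do not name the muscle, so its make-up of fast and slow fibres is not known from them. Of 36332 gene IDs, the 14168 that exceeded 1 CPM (reads per M reads on genes, with M for mega) in at least 6 of the 18 libraries were tested.

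Skeletal muscle fibres are long multinucleate cells packed with sarcomeres, in which thick filaments of myosin pull on thin filaments of actin between Z-discs. An action potential opens calcium release from the sarcoplasmic reticulum, calcium binds troponin, and a calcium pump returns it. The adenosine triphosphate (ATP) this uses comes from a phosphocreatine store, from glycogen and glycolysis and from mitochondria, and fast and slow fibres differ in the isoforms they use for most of these steps.

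A few promoters were chosen to show what matches to muscle-related motifs look like. They are not typical: most promoters of genes higher in muscle held no such match, among them those of Ryr1 and Eno3 in the same window. The 250 bases before the RefSeq start (assembly GRCm38.p6) are printed 5' to 3' on the strand of the gene. Capitals mark matches to 3 motifs searched on both strands: the E-box CAGCTG, which myogenic basic helix-loop-helix factors such as MyoD and myogenin bind, the MEF2 motif, bound by myocyte enhancer factors, and the CArG box, bound by serum response factor. Myh4 and Acta1 encode the main myosin heavy chain and actin of this muscle. Pgam2 and Pgam1, and Pygm and Pygl, are shown as pairs. The first of each pair had more RNA in muscle and the second more in liver.
Myh4, chr11:67237562-67237811, + strand: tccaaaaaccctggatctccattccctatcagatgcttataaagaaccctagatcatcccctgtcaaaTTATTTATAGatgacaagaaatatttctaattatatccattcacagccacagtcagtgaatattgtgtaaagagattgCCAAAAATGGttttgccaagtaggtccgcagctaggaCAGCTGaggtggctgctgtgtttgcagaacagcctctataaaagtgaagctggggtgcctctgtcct
Acta1, chr8:123894776-123895025, - strand: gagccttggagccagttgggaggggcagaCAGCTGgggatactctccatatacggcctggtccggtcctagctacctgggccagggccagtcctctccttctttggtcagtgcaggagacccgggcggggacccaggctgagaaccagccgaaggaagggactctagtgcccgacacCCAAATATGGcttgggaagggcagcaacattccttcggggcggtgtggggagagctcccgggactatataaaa
Pgam2, chr11:5803797-5804046, - strand: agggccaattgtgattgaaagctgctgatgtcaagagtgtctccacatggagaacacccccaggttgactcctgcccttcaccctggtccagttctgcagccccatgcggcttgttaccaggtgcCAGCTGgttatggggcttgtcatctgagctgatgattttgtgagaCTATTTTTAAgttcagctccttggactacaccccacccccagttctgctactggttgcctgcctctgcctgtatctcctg
Pgam1, chr19:41911621-41911870, + strand: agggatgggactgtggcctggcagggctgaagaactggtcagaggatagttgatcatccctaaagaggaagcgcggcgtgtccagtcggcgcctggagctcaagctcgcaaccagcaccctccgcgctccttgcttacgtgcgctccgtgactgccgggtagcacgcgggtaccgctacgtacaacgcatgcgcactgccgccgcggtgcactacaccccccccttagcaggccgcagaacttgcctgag
Pygm, chr19:6384158-6384407, + strand: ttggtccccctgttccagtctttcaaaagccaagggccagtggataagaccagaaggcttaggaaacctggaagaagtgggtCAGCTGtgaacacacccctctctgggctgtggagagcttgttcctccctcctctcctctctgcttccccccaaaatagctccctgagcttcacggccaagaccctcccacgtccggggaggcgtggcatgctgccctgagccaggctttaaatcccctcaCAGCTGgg
Pygl, chr12:70227684-70227933, - strand: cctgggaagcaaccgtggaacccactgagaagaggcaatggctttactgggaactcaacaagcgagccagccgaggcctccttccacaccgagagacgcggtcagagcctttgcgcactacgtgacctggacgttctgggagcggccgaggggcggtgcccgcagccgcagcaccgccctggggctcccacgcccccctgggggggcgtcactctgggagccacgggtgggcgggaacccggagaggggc
The Myh4 window held a match to each motif, Acta1 an E-box and a CArG box, Pgam2 an E-box and a MEF2 motif, and Pygm a pair of E-boxes, and none of these matches overlapped. The letters of the 3 motifs were not found in the Pgam1 and Pygl windows. These are matches of letters, not shown sites of binding.

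Each tissue held the most of its own markers. Recovered reads on genes numbered 15.4 to 19.4 M in muscle, 15.9 to 19.0 M in adipose tissue and 17.1 to 21.1 M in liver, and the 10 most abundant genes took 17.8% to 22.9% of muscle reads. The summed level of 15 muscle fibre markers was 170830 to 227340 CPM in muscle, 59.7 to 2008 CPM in adipose tissue (highest in library W5F5277, with 838 CPM in W5F5041) and 5.45 to 15.5 CPM in liver. In muscle, the 15 adipocyte markers summed to 3689 to 4737 CPM against 51691 to 79657 CPM in adipose tissue, and the 16 hepatocyte markers to 15.2 to 158 CPM against 134044 to 191216 CPM in liver. The adipocyte list includes Gpd1, also a member of the glycolysis list below, so its sum does not measure adipocytes alone. Against the mean of the other tissues 11 adipocyte markers were lower in muscle, 1 higher and 3 not called. Markers of smooth muscle and pericytes summed to 4342 to 5084 CPM in muscle, of macrophages to 84.4 to 354 CPM, of endothelium to 452 to 693 CPM and of tendon to 224 to 671 CPM, while T cell markers stayed between 0.129 and 0.515 CPM. The smooth muscle list includes Des, also a member of the Z-disc list below, so its sum does not measure smooth muscle alone. The satellite cell list, which includes Des too, summed to 3737 to 4761 CPM in muscle. Muscle library W5S5299 and adipose library W5F5299 held epididymis transcripts (109 and 1609 CPM), and W5S5041, W5S5042 and the adipose and liver libraries with the same numbers held Xist, which marks female mice. The median gene differed by -0.42 (log2) between muscle and the mean of the other tissues, by -0.90 against adipose tissue and by 0.21 against liver. With trimmed-mean (TMM) factors these medians were -0.07, -0.06 and 0.02. Small differences below are to be read against that shift.

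At an adjusted p under 0.05 (limma, Benjamini-Hochberg), 3438 of 14168 genes (24.3%) were higher in muscle than in the mean of adipose tissue and liver and 7260 (51.2%) were lower. With TMM factors the split was 4852 higher and 5413 lower. A difference of at least 4-fold was reached by 911 of the higher genes (6.43%) and 1658 of the lower genes (11.7%). A stricter set needed a difference of at least 4-fold (2 on the log2(CPM + 1) scale) and a call against adipose tissue and against liver separately, and it held 623 higher genes (4.4%) and 617 lower genes (4.35%). In 606 of the 623, all 6 muscle libraries lay above all 12 others, and in 598 of the 617 all 6 lay below. Both sets were chosen in these same libraries for large differences, so this separation largely follows from the choice and is a description. The 623 genes took 50.02% ± 1.56 (SD, n = 6) of the muscle reads, against 1.43% to 1.77% in adipose tissue and 0.632% to 0.721% in liver. With TMM factors 606 of the 623 higher genes and 337 of the 617 lower genes kept their call. Without the pair of adipose libraries with the most fibre transcripts the sets numbered 626 and 638, without W5S5299 and W5F5299 636 and 620, without the Xist libraries 629 and 620, and without muscle libraries W5S5004 and W5S5007 643 and 628. These are bulk tissues, so fewer cells of a type and less RNA per cell cannot be told apart. The labels give a different RNA extraction kit for liver than for muscle and adipose tissue, and in muscle against liver kit and tissue cannot be told apart. The labels do not say whether libraries with the same number came from the same mouse.

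**Figure D1:**
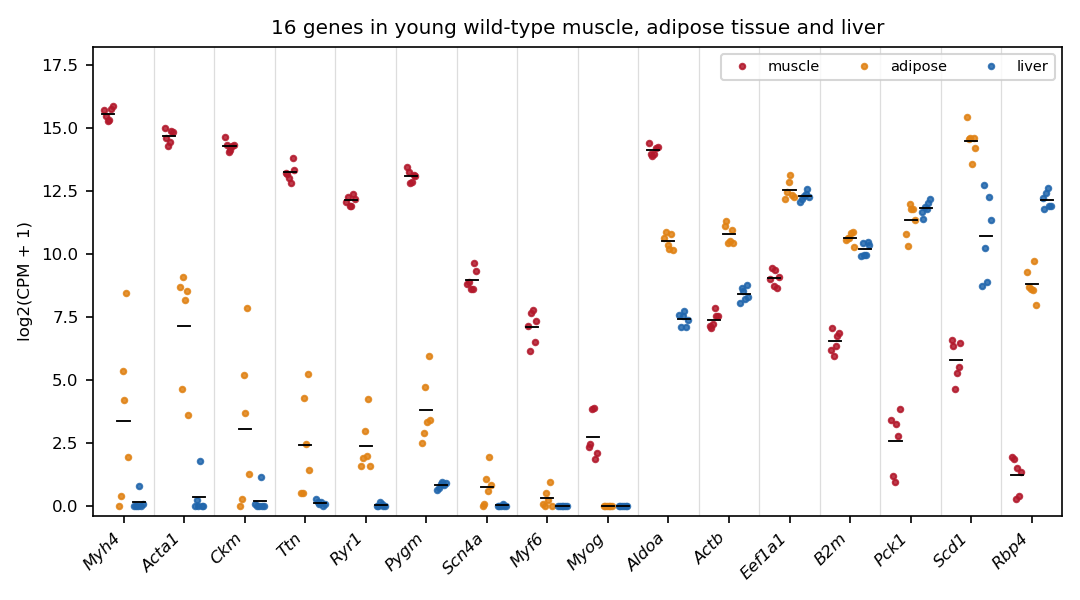
Levels of 16 genes in each of 18 young WT libraries, as log2(CPM + 1); points are libraries, coloured by tissue, and short bars are means over 6. Muscle points of Myh4, Acta1, Ckm, Ttn, Ryr1, Pygm, Scn4a, Myf6, Myog and Aldoa lie above all others, and those of Actb, Eef1a1, B2m, Pck1, Scd1 and Rbp4 lie below.

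All 20 genes of the thick filament and M-band list were higher in muscle than in each other tissue by at least 4-fold. The background, the share over all genes tested, was 4.4%. The median difference of the list was 8.95 on the log2 scale, against -0.42 over all genes tested. The list took 9.15% ± 0.958 (SD, n = 6) of muscle reads, 0.0209% of adipose reads and 0.00173% of liver reads. Myh4, the myosin heavy chain of the fastest (IIb) fibres, whose promoter is printed above, ran from 38823 to 59923 CPM in muscle (median 49203). It ran from 0 to 343 CPM in adipose tissue (median 9.98) and from 0 to 0.699 CPM in liver, a difference of 13.79 (SE 0.84, adjusted p = 1.36e-11, limma). The muscle libraries did not overlap the others, and adipose tissue spanned a wide range, highest in the libraries with the most fibre transcripts. Myh1, the heavy chain of IIx fibres, ranged from 6112 to 21617 CPM in muscle (median 11261), a difference of 12.16. Myh2, the IIa heavy chain, ranged from 491 to 2912 CPM. Mybpc2, the fast form of myosin-binding protein C, which ties myosin filaments together, differed by 10.97. At the low end stood Myh3 and Myh8, the embryonic and perinatal heavy chains, at medians of 3.94 and 4.15 CPM. Muscle library W5S5007 held the most of both, at 29 CPM of Myh3 and 26.1 CPM of Myh8, and the 5 others held at most 5.37 CPM of either. Both genes were at 0 in every liver library, so their differences (2.64 and 2.62) depend on the pseudocount and bound nothing.

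Thin filament genes followed the same pattern. Of 21 genes of the list, 20 were higher in muscle than in each other tissue (background 4.4%, median difference 8.88). They took 8.97% ± 0.507 of muscle reads. Acta1, skeletal actin, ranged from 19610 to 32785 CPM in muscle (median 26924), from 11.2 to 534 CPM in adipose tissue (median 327) and from 0 to 2.42 CPM in liver. Its difference was 10.95 (SE 0.64, adjusted p = 7.32e-12, limma), and per kilobase of exon Acta1 was at 17210 CPM against 8094 CPM for Myh4. Fast troponin genes, which place calcium control on the thin filament, reached 11972 to 17185 CPM for Tnnt3, 5789 to 8586 CPM for Tnni2 and 4513 to 7690 CPM for Tnnc2. Tpm1, a tropomyosin that covers the myosin sites of actin, was also expressed elsewhere: 9315 to 12144 CPM in muscle, 115 to 264 CPM in adipose tissue and 19.0 to 27.5 CPM in liver. The remaining gene, Tpm3, the slow tropomyosin that many non-muscle cells share, ranged from 47.3 to 450 CPM in muscle and from 195 to 340 CPM in adipose tissue, and its difference of 0.05 did not pass (adjusted p = 0.912, limma).

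Z-disc and titin genes came out higher without exception in the list. All 23 were higher in muscle than in each other tissue (background 4.4%, median 8.71) and took 5.41% ± 0.668 of muscle reads. Ttn, the giant spring that spans the sarcomere from Z-disc to M-band, ranged from 7207 to 14096 CPM in muscle (median 9374), 0.401 to 36.4 CPM in adipose tissue and 0 to 0.19 CPM in liver. Ttn, a very long transcript, stood at 83.6 CPM per kilobase of exon, while Tcap, the small cap of titin at the Z-disc, stood at 3561 CPM per kilobase. Actn3, the fast-fibre alpha-actinin that cross-links actin at the Z-disc, ranged from 7614 to 9554 CPM. The smallest difference of the list was that of Pdlim5, an adaptor of the Z-disc expressed in other tissues too, at 3.47 (475 to 905 CPM in muscle, 68.5 to 127 CPM in adipose tissue).

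**Figure D2:**
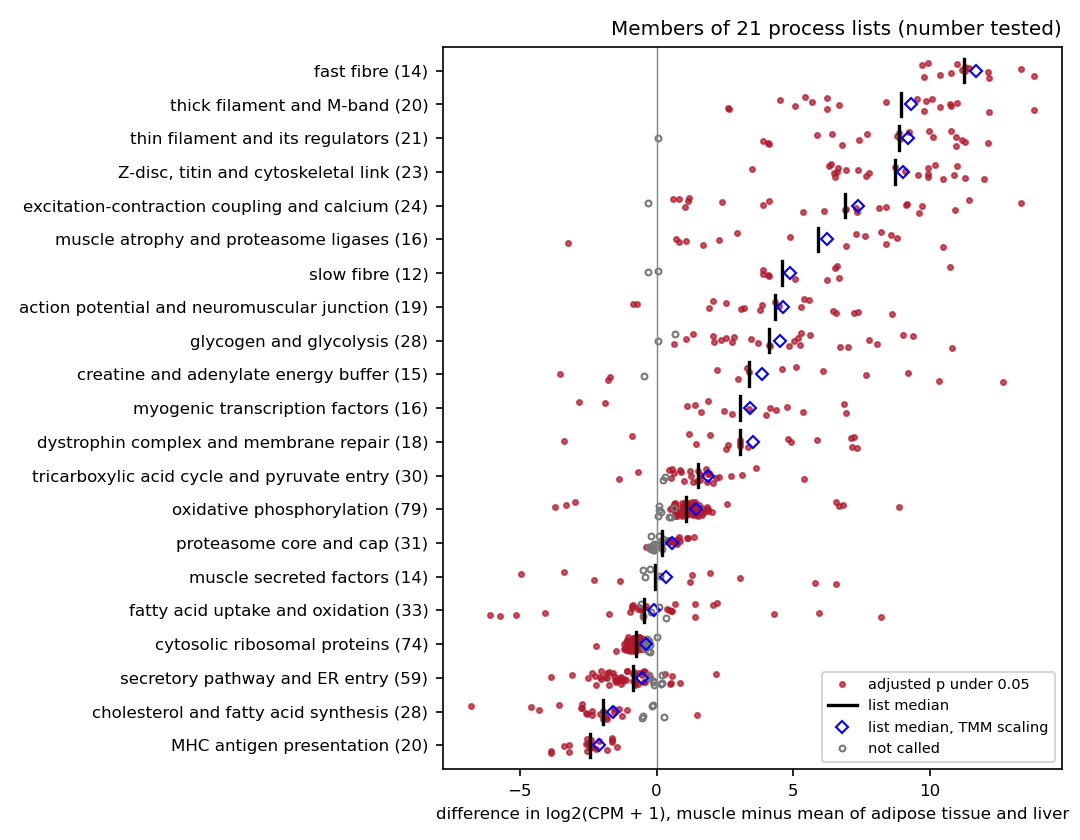
Difference in log2(CPM + 1), muscle minus the mean of adipose tissue and liver, for the tested members of 21 gene lists; filled points passed an adjusted p of 0.05, open points did not, bars are list medians and diamonds list medians with TMM factors. The thick filament, thin filament, Z-disc and fast fibre medians lie between 8.71 and 11.2, the ribosomal, secretory, lipid synthesis and MHC medians between -2.45 and -0.76.

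Genes that turn an action potential into a calcium transient were next in size. Of 24 genes for excitation-contraction coupling, 23 were higher in muscle than in the mean of the other tissues (background 24.3%, median 6.89). Against each tissue by at least 4-fold, 18 were higher (background 4.4%). Atp2a1, the calcium pump of the fast sarcoplasmic reticulum, had the second largest share of muscle reads after Myh4, at 32222 to 37016 CPM (median 33672). It reached 212 CPM in 1 adipose library and at most 1.08 CPM in liver, a difference of 13.32 (SE 0.79, adjusted p = 9.12e-12, limma). Ryr1, the calcium release channel, ranged from 3802 to 5337 CPM in muscle, 1.95 to 17.9 CPM in adipose tissue and 0 to 0.0972 CPM in liver, a difference of 10.91 (SE 0.28). Pvalb, a soluble calcium buffer of fast fibres, ranged from 5399 to 6475 CPM, a difference of 11.41. Among the small peptides that restrain the pump, Mrln (myoregulin) lay at 12 to 27.8 CPM and Sln (sarcolipin) at 0.773 to 23.2 CPM, highest in W5S5007. Atp2a2, the slow-fibre and housekeeping pump, ranged from 52.0 to 794 CPM in muscle and 128 to 370 CPM in adipose tissue. Its difference of -0.31 did not pass (adjusted p = 0.574, limma), was 0.06 with TMM factors and 0.90 by edgeR, and became a call of -1.38 without W5S5004 and W5S5007.

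Membrane excitability and synapse genes separated in the same direction. Of the 19 tested genes of the action potential and neuromuscular junction list, 17 were higher (background 24.3%) and 2 lower (background 51.2%). Higher than in each other tissue were 14 (background 4.4%), and Chrng did not reach the filter. Scn4a, the muscle sodium channel, ranged from 384 to 801 CPM in muscle (median 457), from 0 to 2.85 CPM in adipose tissue and from 0 to 0.0538 CPM in liver, a difference of 8.59 (SE 0.23). Kcna7 and Kcnj11, potassium channel genes, differed by 7.37 and 7.23. Agrn, the agrin that nerves and other cells secrete to cluster acetylcholine receptors, was lower in muscle by 0.86, and Lrp4, the agrin receptor, by 0.71, a call it lost with TMM factors (-0.44), without the Xist libraries (-0.36), without W5S5041 or W5S5042 alone (-0.61 each) and without W5S5299 and W5F5299 (-0.62). Of 18 genes of the dystrophin complex and membrane repair, which tie the cytoskeleton to the matrix, 16 were higher (background 24.3%, median 3.05). Against each tissue, 9 of these were so (background 4.4%). Sgca, a sarcoglycan of the complex, stood at 168 to 237 CPM in muscle and at most 1.08 CPM in the other libraries. Trim72, a membrane repair protein, differed by 7.22. Sntb1, a syntrophin, was lower than in each tissue (-3.4), at 1.65 to 2.33 CPM in muscle against 8.61 to 73.2 CPM in adipose tissue, and Myof (myoferlin) was lower by 0.90 through adipose tissue (41 to 135 CPM), a call it lost with TMM factors (-0.49) and without the Xist libraries (-0.68).

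Regulators of the muscle lineage were also higher in muscle, with a wide spread among its libraries for some. Of 16 tested genes of the myogenic list, 14 were higher (background 24.3%, median 3.06) and 9 were so against each tissue (background 4.4%). Mef2b, Myf5, Myocd, Pax3 and Pax7 did not reach the filter. Myf6, the myogenic factor of adult fibres (also called MRF4), ranged from 70.0 to 216 CPM in muscle (median 150), reached at most 0.912 CPM in adipose tissue and was at 0 in liver. Myod1, the factor MyoD that sets the lineage, ranged from 2.42 to 133 CPM, and Myog, myogenin, from 2.56 to 13.7 CPM. Myog was at 0 in all 12 adipose and liver libraries and Myod1 in all 6 liver libraries. W5S5042 held the highest value of each, and for Myod1 the next highest was 38.9 CPM in W5S5041. Mef2c, a myocyte enhancer factor, ranged from 255 to 644 CPM against 21.2 to 41.1 CPM in adipose tissue and 1.29 to 3.57 CPM in liver, a difference of 5.36 (SE 0.19). Vgll2, a cofactor of TEAD proteins, lay at 75.4 to 200 CPM. The lower pair of the list were Prox1 (-2.85) and Hlf (-1.89), factors that hepatocytes express.

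The same motif letters were counted before all genes with a listed promoter. Among 666 promoters of 487 of the 623 higher genes, 20.6% held the E-box CAGCTG, 9.01% the MEF2 motif and 2.70% the CArG box within 250 bases before the start. Of all 32851 promoters of the table, 13.0%, 2.92% and 1.47% did, and of the promoters of all tested genes 12.5%, 1.80% and 1.19%. Among 610 promoters of the lower genes the shares were 13.1%, 1.15% and 1.48%. By list, the shares with an E-box ran from 45.5% of 11 fast fibre promoters to 0 of 18 promoters of the myogenic regulators. The promoters of the myogenic regulators held 0 MEF2 motifs as well. The share was 44.4% of 18 thin filament promoters and 35% of 20 thick filament promoters. It was 8.45% of 71 oxidative phosphorylation promoters, 5.88% of 34 tricarboxylic acid cycle promoters and 5.88% of 17 dystrophin complex promoters. Genes have several listed starts, so promoters are not independent, and no test was made.

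Most genes of glycogen metabolism and glycolysis had higher RNA levels in muscle. Of 28 genes, 26 were higher (background 24.3%, median 4.12) and 19 were so against each tissue (background 4.4%). The list took 6.22% ± 0.638 of muscle reads, 0.579% of adipose reads and 0.467% of liver reads. Aldoa, aldolase A, ranged from 15126 to 21389 CPM in muscle, 1126 to 1856 CPM in adipose tissue and 134 to 208 CPM in liver, a difference of 5.16 (SE 0.16, adjusted p = 3.08e-16, limma). Pygm, the muscle glycogen phosphorylase that releases glucose units from glycogen, ranged from 7215 to 11122 CPM, against 4.53 to 60.05 CPM in adipose tissue and 0.521 to 0.914 CPM in liver, a difference of 10.80 (SE 0.34). Eno3, muscle enolase, ranged from 4699 to 6455 CPM and Pgam2, muscle phosphoglycerate mutase, from 785 to 1439 CPM. Slc2a4, the insulin-responsive glucose transporter GLUT4, lay at 509 to 807 CPM in muscle and 46.7 to 187 CPM in adipose tissue and differed from liver by 9.29. The smallest call was Gbe1, the glycogen branching enzyme, at 0.65, which was lost without the Xist libraries (0.51). Hk1, a hexokinase of many tissues (0.06, adjusted p = 0.763), and Gpd1, a glycerol phosphate dehydrogenase (0.66, adjusted p = 0.258), did not pass by limma, and Hk1 passed with TMM factors (0.45).

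The creatine and adenylate buffer separated by form rather than as a whole. Of 15 genes 11 were higher (background 24.3%), 3 lower (background 51.2%) and 1 not called (median 3.37). Higher than in each tissue were 8 (background 4.4%). Ckm, cytosolic muscle creatine kinase, ranged from 16964 to 25043 CPM in muscle (median 19815), 0 to 226 CPM in adipose tissue and 0 to 1.18 CPM in liver, a difference of 12.66 (SE 0.81, adjusted p = 2.85e-11, limma). Ckmt2, the mitochondrial form that charges creatine, ranged from 1373 to 1931 CPM, and Ampd1, the muscle deaminase of adenosine monophosphate, from 633 to 984 CPM. The lower genes included Ckb, the brain form of creatine kinase (-1.77), and Gamt, which makes creatine from its precursor. Gatm, the first enzyme of creatine synthesis, differed by -0.48 and did not pass (adjusted p = 0.113, limma).

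Mitochondrial genes were higher in number but by small amounts. In the tricarboxylic acid cycle list 26 of 30 genes were higher (background 24.3%) and 2 lower (background 51.2%), with a median of 1.5. In the oxidative phosphorylation list 69 of 79 were higher and 3 lower (median 1.07). These lists took 1.96% ± 0.0780 and 3.19% ± 0.476 of muscle reads. With TMM factors 28 and 74 were higher (medians 1.86 and 1.43), where 4852 of 13954 genes were higher. At least 4-fold higher than in each tissue were 3 and 5 genes (background 4.4%). Pdk4, the kinase that shuts pyruvate dehydrogenase during fasting, ranged from 4756 to 7551 CPM in muscle, 104 to 1612 CPM in adipose tissue and 20.1 to 147 CPM in liver, a difference of 5.39 (SE 0.51). Oxct1, the enzyme that lets tissues other than liver burn ketone bodies, lay at 368 to 463 CPM in muscle, 159 to 361 CPM in adipose tissue and 2.53 to 4.78 CPM in liver. Idh3a, a catalytic subunit of isocitrate dehydrogenase, differed by 3.11. The largest differences of the respiratory list were those of 3 heart and muscle forms of cytochrome c oxidase subunits, Cox6a2 (8.85), Cox8b (6.81) and Cox7a1 (6.66), and of the ATP and ADP carrier Slc25a4 (6.56). The 3 lower genes were the general forms Cox6a1 (-3.71), Cox8a (-3.30) and Slc25a5 (-2.99), each lower than in each other tissue. Mb, myoglobin, the oxygen store of the fibre, ranged from 2318 to 4056 CPM in muscle and reached at most 33.9 CPM elsewhere.

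Fatty acid uptake and oxidation showed no common direction. Of 33 genes, 12 were higher (background 24.3%), 16 lower (background 51.2%) and 5 not called. The median was -0.46, against -0.42 over all genes tested, so the lower calls and the median stood near the background. With TMM factors 14 were higher and 9 lower (median -0.09, against -0.07 over all genes). Against adipose tissue 13 were higher (background 14.5%) and 12 lower (background 64.3%), and against liver 11 were higher (background 42.3%) and 18 lower (background 29.6%). The higher genes included Fabp3, the heart and muscle fatty acid binding protein (375 to 664 CPM, difference 8.20), Cpt1b, the muscle carnitine palmitoyltransferase that admits fatty acids to mitochondria (350 to 544 CPM, 5.92), and Acsl6, an acyl-CoA synthetase (4.28). The lower genes at the extreme were Slc27a2 (-6.08) and Fabp1 (-5.73), a transporter and a binding protein of liver, at 0.699 CPM or less in every muscle library and at 803 CPM or more in every liver library. Cpt1a, the liver form of the same transferase, was lower than in each tissue, at 10.5 to 27.2 CPM in muscle against 83.3 to 144 CPM in adipose tissue and 340 to 1037 CPM in liver.

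Protein breakdown genes of muscle were high and variable. Of 16 genes of the atrophy and ligase list, 15 were higher (background 24.3%) and 10 were so against each tissue (background 4.4%, median 5.91 against the mean). Trim63, the ubiquitin ligase MuRF1 that marks myosin for breakdown, had 5828 CPM in W5S5004, 4614 in W5S5007, 4413 in W5S5041, 4070 in W5S5042, 373 in W5S5277 and 2384 in W5S5299. It reached at most 15.2 CPM in adipose tissue and 0.269 CPM in liver, a difference of 10.49 (SE 0.60), and W5S5277 stood far below the other muscle libraries. Fbxo32, the ligase atrogin-1, had its lowest value in the same library (898 CPM) and its highest in W5S5004 (3768 CPM). The whole list took 0.488% of reads in W5S5277 and 1.38% in W5S5004. Trim54 and Asb5, relatives in the sarcomere and in ligase complexes, differed by 8.80 and 8.57. Klf15, a glucocorticoid-induced factor, was the smallest call at 0.70 (adjusted p = 0.0417, limma). That call was lost with any of 11 of the 18 libraries left out, among them W5S5004, W5S5007, W5S5041 and W5S5042, and without the first pair of these the difference was 0.38. Fbxo21 was lower than in each tissue (-3.24). The general proteasome differed by small amounts from the mean of the other tissues. Of 31 subunits 13 were higher (background 24.3%), 2 lower (background 51.2%) and 16 not called (median 0.18, against -0.42 over all genes tested). With TMM factors 18 were higher and none of the 31 lower (median 0.55). With these factors all 31 were higher than in adipose tissue (median 1.18), where 4640 of 13954 genes were higher. Against liver 10 were then higher and 3 lower (median -0.08). Psmd11, a regulatory cap subunit, led the proteasome list at 1.38 against the mean. The lower call of Psma7 (-0.38) was lost with TMM factors (-0.02), without the Xist libraries (-0.31) and without W5S5277 (-0.28).

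Secreted factors attributed to muscle were mixed. Of 14 tested genes 6 were higher (background 24.3%), 4 lower (background 51.2%) and 4 not called (median -0.07, and 0.32 with TMM factors), and Erfe and Il6 did not reach the filter. Mstn, myostatin, which limits muscle growth, had 218, 212, 128, 135, 27.6 and 49.3 CPM in W5S5004, W5S5007, W5S5041, W5S5042, W5S5277 and W5S5299, reached at most 0.52 CPM in adipose tissue and was at 0 in liver. The same 2 libraries that were low in Trim63 were low in Mstn. Fndc5, the precursor of irisin, lay at 81.7 to 134 CPM (5.78), and Ostn, osteocrin or musclin, at 3.59 to 18.5 CPM in muscle and 0.173 CPM or less elsewhere. Igf1, a growth factor made mainly by liver, was lower by 4.95 (1.62 to 14.7 CPM in muscle, 69.2 to 217 CPM in adipose tissue, 297 to 543 CPM in liver), and Nrg4, a factor of fat cells, by 3.4.

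For 30 pairs of related genes, picked because a muscle form was already known, the forms were compared. The muscle form was higher in muscle in 29 and higher than in each other tissue in 26 (background 4.4%), while the other form was lower in 24 (background 51.2%) and higher in 2 (background 24.3%). The choice of pairs makes these counts a description. Per kilobase of exon, the muscle form made up more than 50% of the pair in every muscle library in 29 pairs, in every adipose library in 8 and in every liver library in 3. Pgam2 was 99.4% ± 0.170 (SD, n = 6) of the Pgam2 and Pgam1 sum in muscle, 0.105% to 20.2% in adipose tissue and 0% to 0.240% in liver. Pgam1, whose promoter without matches is printed above, stood at 12.3 to 17.3 CPM in muscle, 168 to 237 CPM in adipose tissue and 157 to 233 CPM in liver. Eno3 was 99.5% ± 0.0548 of the enolase pair in muscle and at most 28.3% elsewhere, and Pygm at least 99.98% of the phosphorylase pair in muscle and at most 43.4% in adipose tissue and 0.670% in liver. The mitochondrial pairs switched too: Cox6a2 was 95.2% to 97.3% of its pair in muscle and at most 2.07% elsewhere, Cox8b 94.5% to 96.6% and at most 8.73%, and Cox7a1 73.4% to 80.6% and at most 6.06%. Cox7a2, the general partner of Cox7a1, did not differ beyond the test (0.07, adjusted p = 0.682, limma), and passed with TMM factors (0.43). In translation elongation, Eef1a2 made up 76.4% to 83.2% of the pair in muscle and at most 0.361% elsewhere, and Eef1a1, the general form, stood at 394 to 680 CPM in muscle and at 4191 CPM or more in every other library.

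Some pairs departed from the pattern. Prkag3, the fast-muscle gamma subunit of AMP-activated kinase, was 25.5% to 46.2% of its pair with Prkag1 in muscle, so the general form stayed in the majority, yet it was at most 8.71% in the other tissues. Its catalytic partner Prkaa2 was 82.8% to 90.8% of its pair in muscle and 58.6% to 79.1% in liver as well. Ldha and Ldhb, the lactate dehydrogenase subunits, were both higher in muscle than in the mean (1.32 and 3.56), so Ldha, at 78.3% to 92.5% of the pair, had a lower share in muscle than in liver (99.5% to 99.8%). Bcat2, the mitochondrial branched-chain aminotransferase, did not differ from the mean (0.02, adjusted p = 0.913, limma), being lower than adipose tissue by 1.61 and higher than liver by 1.64. Many of these pairs are close relatives, and how reads shared between them were counted is not given in the sources used here.

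**Figure D3:**
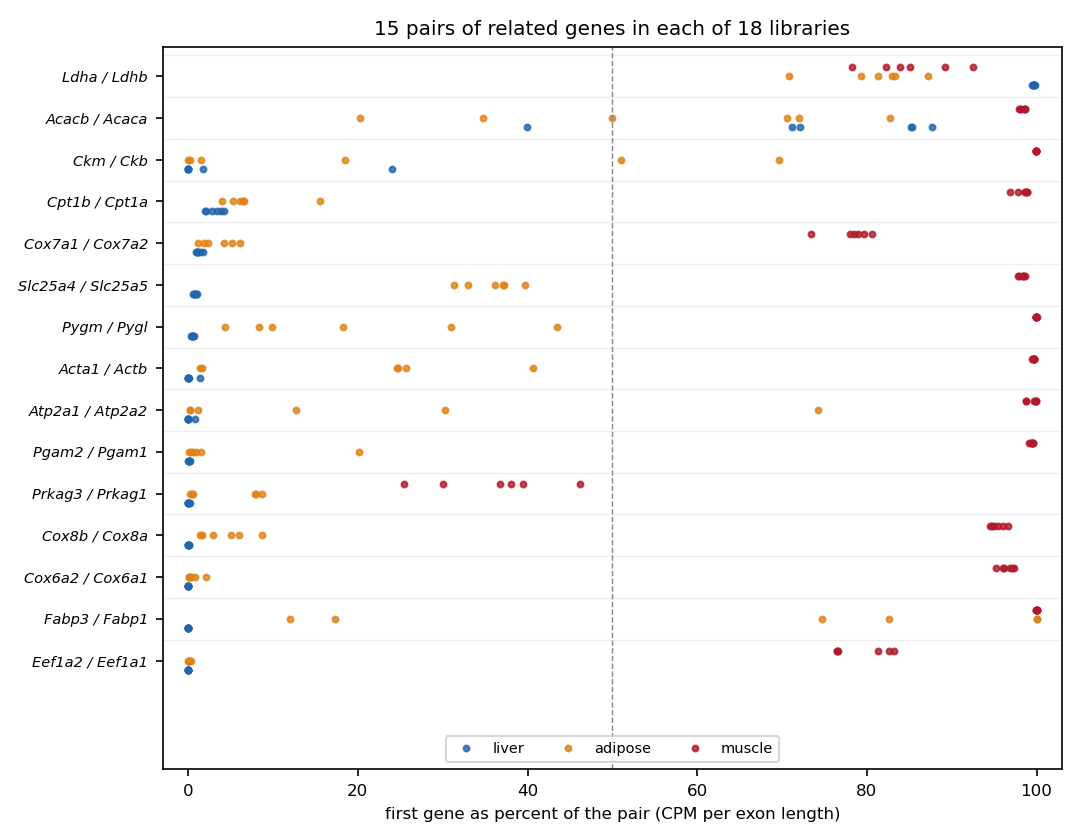
Percent of a pair made up by its first-named gene, for 15 of the 30 pairs, from CPM per exon length, in each of 18 libraries coloured by tissue; the dashed line marks 50%. Muscle points lie to the right of the line in each pair drawn except that of Prkag3, at 25.5% to 46.2%.

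Genes lower in muscle than in both other tissues included enzymes and plasma proteins that liver and fat share. Pck1, the enzyme that liver and fat use to make glucose and glycerol from smaller acids, stood at 0.906 to 13.2 CPM in muscle, 1251 to 4027 CPM in adipose tissue and 2624 to 4545 CPM in liver, a difference of -9.00 (SE 0.37, adjusted p = 2.7e-14, limma). Rbp4, the retinol carrier of plasma, stood at 0.194 to 2.85 CPM in muscle, 249.2 to 830 CPM in adipose tissue and 3482 to 6152 CPM in liver (-9.24). Hp (haptoglobin), Trf (transferrin), Cyp2e1 (a cytochrome P450), Cdo1 (cysteine dioxygenase), Gsta3 (a glutathione transferase) and Cd1d1 (a lipid antigen presenter) differed by -8.28, -8.14, -7.78, -7.57, -7.33 and -7.06. These genes were picked from those in which no muscle library overlapped either tissue, so that separation follows from the choice.

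All 20 genes of the MHC antigen presentation list were lower in muscle than in the mean of the other tissues (background 51.2%; median -2.45, and -2.11 with TMM factors, when all 20 were still lower), and 7 were lower than in each tissue by at least 4-fold (background 4.35%). Against adipose tissue all 20 were lower, and against liver 14 were lower and 6 not called (17 lower with TMM factors). The list took 0.0498% ± 0.0108 of muscle reads, 0.717% of adipose reads and 0.399% of liver reads. B2m, the light chain of class I molecules, stood at 59.6 to 132 CPM in muscle, 1224 to 1847 CPM in adipose tissue and 967 to 1396 CPM in liver, a difference of -3.88 (SE 0.16), and H2-K1, a class I heavy chain, at 59.6 to 118 CPM in muscle (-3.86). The smallest differences were those of Psmb10, an immunoproteasome subunit (-1.45), H2-DMa, a class II chaperone (-1.62), and Erap1, a peptide trimming enzyme (-1.62). H2 genes are close relatives of each other, so reads could be split among them. The macrophage markers that come with class II genes summed to 84.4 to 354 CPM in muscle, 2092 to 3100 CPM in adipose tissue and 225 to 497 CPM in liver, and their part in the result was not tested.

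Lipid synthesis was low as well. Of 28 genes for cholesterol and fatty acid synthesis 22 were lower (background 51.2%) and 1 higher (background 24.3%; median -1.95, and -1.61 with TMM factors). In each tissue comparison by at least 4-fold, 7 were lower (background 4.35%). Scd1, the desaturase that makes oleic acid, stood at 24 to 94.1 CPM in muscle, 12050 to 43404 CPM in adipose tissue and 417 to 6739 CPM in liver, a difference of -6.78 (SE 0.51). Fasn, fatty acid synthase, stood at 5.76 to 21.3 CPM in muscle, 318 to 4286 CPM in adipose tissue and 73.8 to 185 CPM in liver (-4.59). Fdft1, squalene synthase, was the higher gene, at 74.8 to 126 CPM in muscle (1.48). Acacb, the carboxylase whose product regulates fatty acid entry to mitochondria, was higher (2.06) while Acaca, the carboxylase of fatty acid synthesis, was lower (-2.75), and Acacb made up 97.9% to 98.6% of the pair per length.

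Genes of protein synthesis and export had list medians below the median of all genes tested (-0.42, and -0.07 with TMM factors). Of 74 cytosolic ribosomal protein genes 63 were lower, 11 not called and 0 higher (background 51.2% lower; median -0.76). With TMM factors 23 were lower and the median was -0.39, where 5413 of 13954 genes were lower, so the count rests on the scaling. Against adipose tissue 73 were lower (background 64.3%), and against liver 11 were lower (background 29.6%) and 1 higher. Rpl3 was the lowest at -2.22, with 42.7 to 106 CPM in muscle, 494 to 1079 CPM in adipose tissue and 135 to 287 CPM in liver. Rps2 (-0.23), Rpl4 (-0.24) and Rplp0 (0.01) did not pass by limma, and the first pair turned positive with TMM factors (0.14 and 0.12). Of 59 genes of the secretory pathway 45 were lower (background 51.2%) and 6 higher (background 24.3%), with a median of -0.87. With TMM factors 38 were lower and 9 higher (median -0.52), where 5413 of 13954 genes were lower and 4852 higher. Lower than in each tissue by at least 4-fold were 6 (background 4.35%). Pdia4, a disulfide isomerase of the endoplasmic reticulum, stood at 4.63 to 12.6 CPM in muscle against 126 to 161 CPM in adipose tissue and 75.7 to 160 CPM in liver (-3.88), and Sec24d, a coat protein of export vesicles, differed by -3.08. Sar1b, the small GTPase that starts those coats, went the other way at 2.17 (348 to 616 CPM in muscle).

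Slow fibre genes were among those that varied between the muscle libraries. Over all genes tested, the median SD of log2(CPM + 1) was 0.275 among the 6 muscle libraries, 0.366 in adipose tissue and 0.287 in liver. Myh7, the slow myosin heavy chain, had 1172 CPM in W5S5004, 1206 in W5S5007, 66.5 in W5S5041, 187 in W5S5042, 4.52 in W5S5277 and 5.21 in W5S5299. The slow troponins Tnnt1, Tnni1 and Tnnc1 and the light chains Myl2 and Myl3 were highest in the same pair, W5S5004 and W5S5007: Tnnt1 was at 252 and 229 CPM there, 21.2 and 50.6 CPM in W5S5041 and W5S5042, and 3.21 and 4.55 CPM in W5S5277 and W5S5299. Mybpc1, the slow myosin-binding protein C, did not follow, with its lowest value (1593 CPM) in W5S5004 and its highest (4632 CPM) in W5S5041. Csrp3, a Z-disc protein of slow fibres, was highest in W5S5041 and W5S5042 (1742 and 1312 CPM). Against each other tissue by at least 4-fold, 10 of the 12 slow fibre genes (median 4.59) and all 14 fast fibre genes (median 11.2) were higher. The background was 4.4%. The slow list as a whole took 0.391% (W5S5299) to 0.695% (W5S5041) of muscle reads and the fast list 14.4% to 17.1%. Mybpc1 and Csrp3, which did not follow Myh7, made up most of the slow sum in W5S5041 (4632 and 1742 of 6951 CPM). The sum therefore does not rank the libraries by Myh7.

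Per kilobase of exon, Myh4 was the larger part of the 6 sarcomeric heavy chains in each muscle library: 86.5%, 76.9%, 73.9%, 75.5%, 71.9% and 90.3% in W5S5004, W5S5007, W5S5041, W5S5042, W5S5277 and W5S5299. Myh1 followed at 9.35%, 18.4%, 23.5%, 19.7%, 27% and 9.07%, Myh2 stood at 0.624% to 4.57%, and Myh7 at 0.00417% to 1.44%. In muscle of the other groups Myh7 stood at 0.0105% to 0.0810% (WT, 20 months, n = 5), 0.115% to 1.67% (KO, 5 months, n = 4) and 0.0221% to 0.305% (KO, 20 months, n = 5). The labels do not name the muscle, and the part of the dissected region in these values was not tested.

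**Figure D4:**
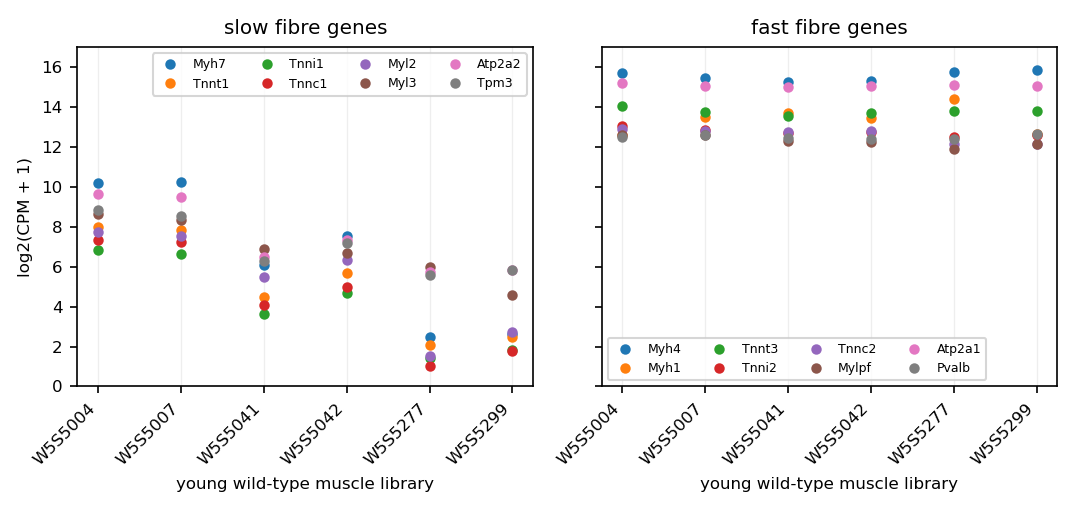
Levels of 8 of the 12 slow fibre genes (left) and 8 fast fibre genes (right) in the 6 young WT muscle libraries, as log2(CPM + 1). The 8 slow genes drawn are highest in W5S5004 and W5S5007 (Myh7 at 1172 and 1206 CPM) and lowest in W5S5277 and W5S5299. Left out of the drawing are Myoz2 and also Mybpc1, Csrp3 and Casq2, which do not follow that order. The fast gene Myh4 lies between 38823 and 59923 CPM.

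Heat shock and immediate early genes split the same libraries another way. Hspa1a, the inducible heat shock protein 70, had 2028 CPM in W5S5041 and 3707 CPM in W5S5042 and 18.1 to 76.0 CPM in the other 4. Hspa1b, its near-identical copy, had 1896 and 3356 CPM there and 6.54 to 53.6 CPM elsewhere. Reads could be split between these copies. Egr1, an immediate early transcription factor, had 328 and 680 CPM in that pair and 8.95 to 21.1 CPM in the others, Dnajb1, a heat shock cochaperone, 325 and 649 CPM against 5.89 to 10.2 CPM, and Atf3, a stress-induced factor, 873 and 821 CPM against 25 to 184 CPM. W5S5041 and W5S5042 are also the muscle libraries with Xist, so sex and these values cannot be told apart among the 6. Hspa1b, Dnajb1 and Egr1 missed the call (1.97, 0.08 and 0.91, adjusted p = 0.0774, 0.927 and 0.306, limma), were called by edgeR on recovered reads (5.28, 2.77 and 3.08), and without the Xist libraries stood at -0.21, -1.68 and -0.39. Myc, the gene the series targets, had 5.29 to 62.8 CPM in muscle (highest in W5S5042), 16.5 to 34.0 CPM in adipose tissue and 3.84 to 24.8 CPM in liver, and did not differ from their mean beyond the test (0.03, adjusted p = 0.946, limma).

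The differences of the young WT muscle were found again in libraries the sets had not used. In WT mice of 20 months 620 of the 623 higher genes were higher in muscle (background 23.8%) and 616 of the 617 lower genes were lower (background 52.5%), with medians of 4.27 and -3.34 against 4.37 and -3.21 in young WT. In KO mice of 5 months 621 were higher (background 22%) and all 617 were lower (background 50.9%), and in KO mice of 20 months 621 (background 23.8%) and 617 (background 50.4%). The genes were chosen for their differences in young WT, so the young WT medians carry that choice and the others do not. In each of the other 3 muscle groups too, 29 of the 30 pairs had more than 50% of the muscle form in every library. Contractile lists kept their size: the thick filament median was 9.14, 8.77 and 9.36 in WT of 20 months, KO of 5 months and KO of 20 months, and the thin filament median 8.27, 9.37 and 8.30.

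The contrast of muscle with the other tissues differed between 20 and 5 months in WT for 1229 of 16054 genes (7.66%), 483 upward and 746 downward (limma interaction term over all 64 libraries). Among the 623 higher genes 86 did, 43 in each direction, and among the 617 lower genes 14 upward and 21 downward. The WT libraries of 20 months had at most 0.518 CPM of Xist, so sex is not balanced over age, and without the young Xist libraries 646 genes of the whole table were called. A change of the contrast can come from muscle, adipose tissue or liver. The genes named next were taken from the 623 for the size of their change, so their sizes and p-values carry that choice. Egln3, a prolyl hydroxylase of the oxygen-sensing pathway, went from a difference of 4.11 at 5 months to 1.76 at 20 months, and in muscle from a mean of 244 CPM (51.2 to 434) to 38.0 CPM (19.1 to 55.8). Ky, a Z-disc linked protein, rose from 2.96 to 6.23, with 122 CPM in W5S5277 and 3.62 to 11 CPM in the other young libraries, against 20.7 to 255 CPM at 20 months. Mss51, a mitochondria-linked protein of muscle, rose from 5.18 to 7.04 (16.8 to 107 CPM at 5 months, 134 to 261 CPM at 20 months), and Nmrk2, a muscle kinase of nicotinamide riboside, from 4.11 to 6.49 (2.74 to 123 CPM and 69.7 to 118 CPM, at 0 in all liver libraries of both ages). In the oxidative phosphorylation list 10 of 79 genes moved upward and 0 downward, where 483 and 746 of all 16054 genes did. The list median in WT was 1.07 at 5 months and 1.61 at 20 months. In KO it was 1.30 at 5 months and 1.29 at 20 months. The shift was not particular to this list: 6 of 74 cytosolic ribosomal protein genes moved upward and 0 downward, with WT medians of -0.76 and -0.16. The contrast of KO with WT at 5 months, as the same kind of interaction, gave 0 genes by limma (smallest adjusted p = 0.0530), with 415 of 16054 at an unadjusted p under 0.05, of which 32 were among the 623 higher and 32 among the 617 lower genes. TMM factors gave 1 gene.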

How the data were processed

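RNA of 64 libraries (12 groups of tissue, genotype and age) was sequenced after poly-T selection with a directional kit, per the labels' protocols. The authors deposited 1 table of scaled gene signal named CPM per the file headers. Its columns did not sum to 1 M (M for mega; 0.600 to 0.712 M in young WT adipose tissue, 1.36 to 1.64 M in liver, 1.16 to 1.30 M in muscle), and 100% of values came back as whole reads within 0.01 of a read. Builds GRCm38.p6 and mm10 stand in the submitters' processing notes, and the aligner and counter are not given in the sources used here.

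Each column was rescaled to 1 M and genes above 1 CPM in at least 6 libraries were kept. Differences in log2(CPM + 1) were tested with limma 3.58.1 (R 4.3.3; trended variance, 1 mean per tissue, or per group over 64 libraries for other ages and genotypes), adjusted by Benjamini-Hochberg over all genes. The labels do not say that libraries of a group came from separate animals, so p-values measure the spread between these samples. A fold change on this scale understates the change of low genes. With a gene at 0 in every library of a tissue the difference depends on the pseudocount. Setting such genes to a floor of 3 reads per library moved the median of the 623 higher genes from 4.37 to 4.34. Alternatives included edgeR 4.0.16 and DESeq2 1.42.0 on the recovered reads. The fit was tested on simulated data.

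Named genes were the 12 most raised and 8 most lowered against both tissues, the 10 most abundant, the extremes of each list, all pair members, the 8 most variable among muscle libraries and a few regulators. Members and lists were chosen with earlier results of these data known. Gene IDs without a symbol (996) held 0.143% of reads and stayed in the fit. No per-sample column was left out (0 unused). A few genes of the lists are not reported here by name, and are counted in the totals.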

Additional observations from a re-analysis of the deposited data

Results flagged for a closer look

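Of 168 groups of libraries examined, 17 had 1 library whose gap to the nearest other exceeded Dixon's 95% limit for 6 libraries (0.625), and chance flags about 1 in 20. In muscle library W5S5042, Hk1 stood at 25.5 CPM (others 9.89 to 14.0), Myc at 62.8 CPM (5.29 to 26.6), Myod1 at 133 CPM (2.42 to 38.9), Erfe, a hormone of iron balance, at 8.42 CPM (0.297 to 2.98) and Il6, a cytokine, at 0.953 CPM (0 to 0.259). In W5S5007, Myh3 stood at 29 CPM (2.26 to 5.37), Myh8 at 26.1 CPM (2.51 to 4.40), Chrng, the fetal subunit of the acetylcholine receptor, at 1.29 CPM (0.0530 to 0.0647), Gamt at 15.2 CPM (5.12 to 8.47) and Gsta3 at 5.09 CPM (0.654 to 1.92). In W5S5277, Ky stood at 122 CPM (3.62 to 11), Agrn at 30.3 CPM (14.6 to 20.1) and Pax7, the satellite cell factor, at 3.09 CPM (0.194 to 1.14). In W5S5004, Fabp1 stood at 0.430 CPM (0 to 0.0530) and Slc27a2 at 0.699 CPM (0 to 0.206). Epididymis transcripts summed to 109 CPM in W5S5299 (other muscle libraries 0 to 0.376) and to 1.61e+03 CPM in W5F5299 (other adipose libraries 0.171 to 1.43).

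The difference between muscle and the other tissues changed from 5 to 20 months in WT (limma interaction) by -2.34 for Egln3 (adjusted p = 0.000585), by 1.86 for Mss51 (adjusted p = 0.000845), by 2.39 for Nmrk2 (adjusted p = 0.00643) and by 3.27 for Ky (adjusted p = 0.00192). These genes were named for the size of that change, so the values carry the choice.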

How the results depend on the processing

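Against adipose tissue, 2058 genes were higher and 9113 lower, against 4248 and 5461 with deposited columns, 4640 and 4976 with TMM factors, 4555 and 5316 with edgeR and 4548 and 5529 with DESeq2 on recovered reads. Genes higher than in each tissue numbered 623, and 943 with edgeR. Genes lower than in each numbered 617, and 376 with TMM factors, 1015 with edgeR, 1056 with DESeq2 and 1158 with a pseudocount of 0.1. The edgeR and DESeq2 fits change the model as well as the scaling, and the cause was not tested. The split of calls against the mean was 3438 higher to 7260 lower, and 4634 to 5733 with deposited columns. Against liver it was 5989 to 4192, and 5178 to 5052 with TMM factors.

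With 1 library left out at a time, genes higher than in each numbered 622 to 646 and lower 587 to 632. Against the mean, 3316 to 3578 were higher and 7179 to 7471 lower, against adipose tissue 2000 to 2132 and 8945 to 9371, and against liver 5828 to 6098 and 4071 to 4273. The age interaction gave 1229 genes, 826 to 1533 with 1 library left out and 646 without the Xist libraries. The genotype interaction gave 0 to 4 (4 without muscle library W5S5042), 1 with TMM factors and 2 with the filter at 5 CPM. With the replicate block, 626 genes were higher and 646 lower than in each (604 and 580 shared). Whether same-numbered libraries share a mouse is not stated. Of 14 same-numbered pairs 11 correlated above 0.1 (median 0.16, range -0.075 to 0.315), against 23 of 94 other pairs (median -0.047), and 10 of 16 libraries correlated best with their own number. Pairing was taken as shown only if every pair exceeded 0.1, so it is a hint from the data and the block was not used in the main values.

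Of the named genes, 159 kept direction and call with TMM factors, and 5 lost the call (Lrp4, Myof, Prkaa1, Psma7 and Suclg2). A further 8 were classed as stronger and 5 as moved, so they are not among the 159. Depth limits genes near 1 CPM, such as Chrng and Il6.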

Other observations

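Among genes of other cells in the muscle libraries, fibroblast markers summed to 1290 to 3150 CPM (highest in W5S5007), Schwann cell and nerve markers to 86.9 to 244 CPM (highest in W5S5042) and erythroid markers to 237 to 811 CPM (highest in W5S5007). Markers of the mesothelium, which lines the omentum, summed to 0.535 to 2.09 CPM in muscle and 304 to 1560 CPM in adipose tissue. Ucp1, the uncoupling protein of brown fat, was at 0 in all 6 muscle libraries. The pancreas markers summed to at most 0.476 CPM.

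Ankrd1, a stretch-responsive Z-disc protein, stood at 18.9, 76.8, 1190, 1651, 74.9 and 338 CPM in W5S5004, W5S5007, W5S5041, W5S5042, W5S5277 and W5S5299. It was highest in the pair of libraries that were highest in Hspa1a and Egr1.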
